A study of Sporobolus alterniflorus and Setaria viridis with 12 samples.

Results

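Among 15218 gene IDs measured in leaves of 2 grasses, 56 genes had high values in untreated Setaria viridis, low values in salt-treated S. viridis, and high values in Spartina alterniflora with and without salt. They were chosen by their measured FPKM (fragments scaled to gene length and to the library's fragment total) in all 12 libraries. Every S. viridis control library had to reach 20 FPKM, and the highest S. viridis salt value + 1 had to be at most 0.25 of the lowest control value + 1. Every S. alterniflora library, control or salt, had to reach 20 FPKM, and the ratio of the mean salt value + 1 to the mean control value + 1 had to lie above 0.5 and under 2 in that species. The fall in S. viridis and the limits in S. alterniflora are therefore conditions of the choice, and the values below describe them without a test.

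S. viridis, green foxtail, is a fast-growing C4 grass and a laboratory relative of foxtail millet with no salt glands. S. alterniflora, smooth cordgrass, is a C4 grass of tidal marshes that secretes salt through glands on its leaves. In salt-sensitive plants, sodium and the lack of available water commonly lower leaf transcripts of photosynthesis and growth, whereas halophytes go on growing at salt levels that stop other plants.

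Mature leaves were sampled from 4 groups of 3 libraries: S. viridis control, S. viridis under NaCl, S. alterniflora control and S. alterniflora under NaCl. Both species were raised under the same indoor conditions and salt-treated in hydroponic culture, to which S. alterniflora was moved at an age of 2 months. The labels' treatment text states 250 mM NaCl for green foxtail and 50 mM for cordgrass, whereas the column headers pair foxtail with 50 and cordgrass with 250. The dose of each species is uncertain for that reason, and species and dose differ together. If the species prefixes of the columns had been exchanged, every value would belong to the other species. The labels used here state no length of treatment, no accession or ecotype, no age for S. viridis, and not whether each library is another plant. Column letters A, B and C name the libraries.

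The files pair 0 of the IDs with a gene name, so no function, pathway or leaf cell type marker could be assigned to any of the 56 genes, and the tissue label could not be checked against markers. Depth is unknown, since FPKM does not carry the number of reads. Total FPKM per library was 510410 to 631719 in the foxtail and 666702 to 915944 in the cordgrass. Within groups, Spearman correlations across all genes were 0.982 to 0.989 for S. viridis controls and 0.949 to 0.956 for its salt libraries. They were 0.894 to 0.936 for S. alterniflora controls and 0.854 to 0.928 for its salt libraries, so libraries of this species resembled each other less.

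Many of the 56 genes were abundant in both grasses without salt, where the rule required at least 20 FPKM, while 12 in S. viridis and 17 in S. alterniflora had control means under 100 FPKM. Their group means ran from 27.3 to 10781 FPKM in S. viridis controls, with a median of 346.3 FPKM, and from 26.7 to 38681 FPKM in S. alterniflora controls, with a median of 200.9 FPKM. Of the 100 most abundant genes in S. viridis controls, 23 belonged to the set, and 21 of the 100 most abundant in S. alterniflora controls did. Such levels were less frequent among the other genes above the floor of 20 FPKM: 22 of the 56 reached 1000 FPKM in S. viridis controls (39.3%), against 47 of the 1049 other genes that met the same floors (4.48%). In both controls 16 genes reached that level. The rule reads the S. viridis control values for the floor and again as the base of the fall. The contrast with the other genes is therefore a description of the chosen genes. Under salt, 2 of the 56 stayed among the 100 most abundant genes of S. viridis, and 18 among those of S. alterniflora.

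**Figure D1:**
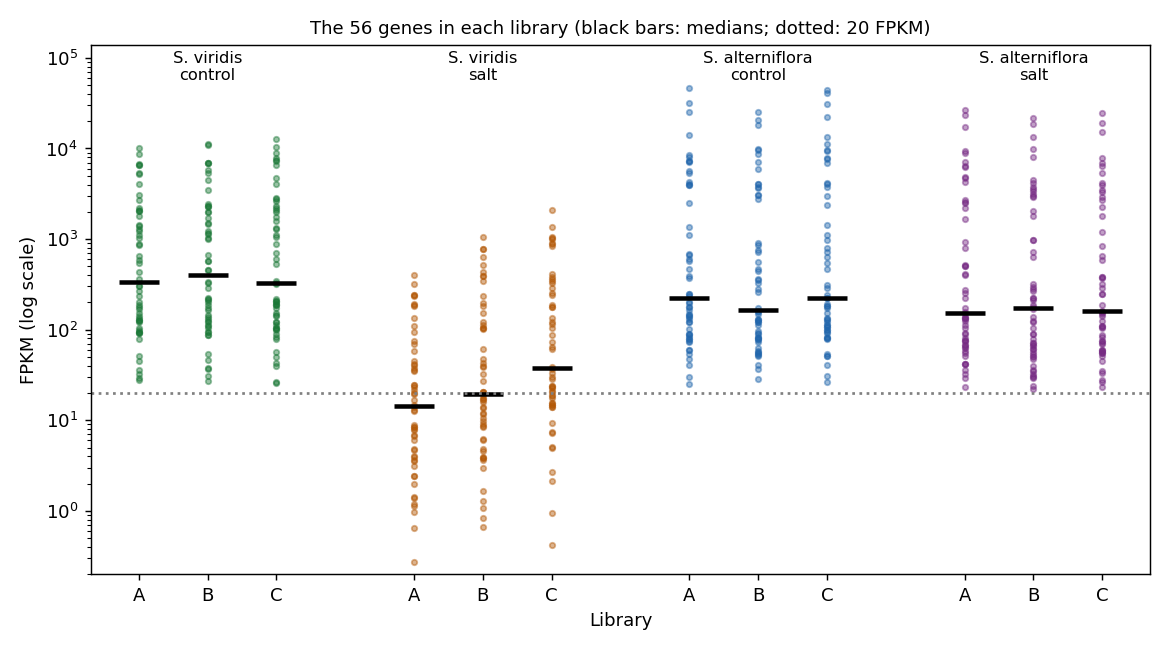
FPKM of the 56 genes in each of the 12 libraries on a log scale, with 1 point per gene, black bars for the medians of the libraries and a dotted line at 20 FPKM. Medians were 324.9 to 396.5 FPKM in S. viridis controls and 14.3 to 38.0 FPKM in its salt libraries, against 166.9 to 223.2 FPKM in S. alterniflora controls and 154.2 to 172.5 FPKM in its salt libraries.

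The set held a large share of the leaf's measured transcripts. In S. viridis controls the 56 genes made up 13.7%, 15.0% and 16.1% of total FPKM in libraries A, B and C. Under salt they made up 0.607%, 1.38% and 2.49%. The groups were far apart, with means of 14.9% ± 1.22 (SD, n = 3) and 1.49% ± 0.947. The 10 genes highest in S. viridis controls supplied 69.7% to 70.6% of the set's FPKM in those libraries. In S. alterniflora the shares were 25.0%, 20.8% and 25.4% in controls and 18.7%, 15.7% and 16.6% under salt. These groups did not overlap either, with means of 23.7% ± 2.55 and 17.0% ± 1.56 (SD, n = 3). In these whole-leaf samples, fewer cells of a type and less RNA per cell cannot be told apart, and a share of total FPKM also moves with all other genes.

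**Figure D2:**
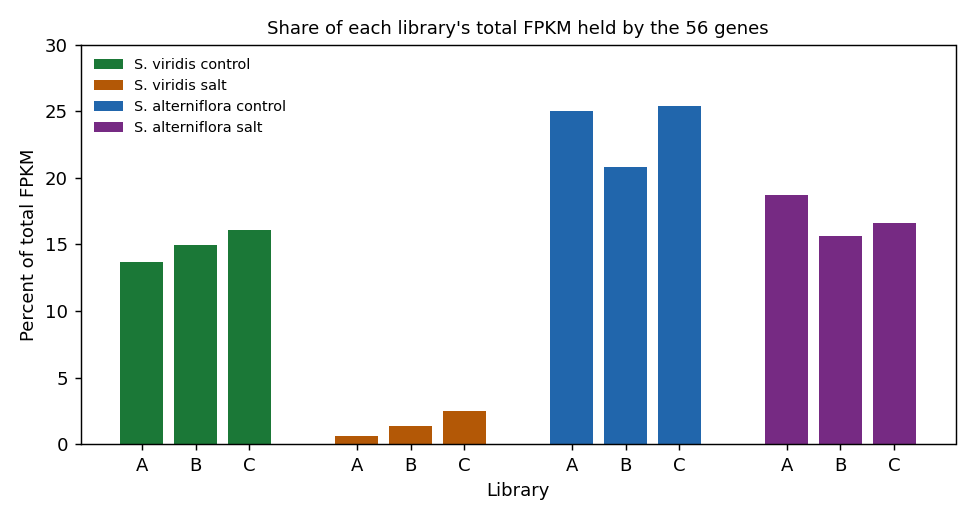
Percent of each library's total FPKM held by the 56 genes, 1 bar per library. The S. viridis salt bars stand at 0.607% to 2.49%, the S. viridis control bars at 13.7% to 16.1%, and the S. alterniflora bars at 15.7% to 25.4%, with its 3 salt libraries below its 3 controls.

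The size of the fall in S. viridis varied widely beyond what the rule demanded. By the ratio of mean FPKM + 1, the genes were 5.93 to 253.3 times lower under salt than in controls, with a median of 10.4 and quartiles of 8.41 and 13.4. At least 10-fold lower were 30 genes, and at least 50-fold lower were 4. The median fold did not shrink with abundance: it was 11.98-fold for the 22 genes at 1000 FPKM and above in controls, 10.6-fold for the 22 genes at 100 to 1000 FPKM and 8.72-fold for the 12 genes under 100 FPKM, where adding 1 understates the change. All 56 passed the filter of a mean of 1 FPKM, and limma called all 56 lower, where 27.1% of 11266 tested genes were called lower (Benjamini-Hochberg adjusted p under 0.05). The choice of the genes fixes that count. Over all genes, limma made 5913 calls, and 3907 without control library B.

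Few of these genes were lost altogether. Only 1 of the 56, Sevir.2G294100, was under 1 FPKM in every S. viridis salt library. It stood at 362.8, 455.3 and 326.3 FPKM in controls and at 0.27, 0.84 and 0.42 FPKM under salt, which makes it the gene with the deepest fall. By contrast, all salt libraries of 23 genes still reached 20 FPKM, and those of 10 genes reached 100 FPKM. The word "lost" thus fits the set as a strong reduction and not as silencing.

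Sevir.5G222600 came next by the ratio used in the rule. It measured 1235, 1477 and 2642 FPKM in S. viridis controls and 19.7, 27.3 and 20.5 FPKM under salt. The salt libraries of this gene lay close together, while its controls spread over a wider range. The most abundant gene of the set in S. viridis controls, Sevir.6G164700, was singled out after its values were seen. It measured 8742, 10809 and 12791 FPKM in controls and 135.3, 349.0 and 992.5 FPKM under salt, a mean 21.9-fold lower. Here the salt libraries differed among themselves far more than the controls did.

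That spread between S. viridis salt libraries ran through most of the set. Library A kept a median of 4.5% of the control mean, library B 7.11% and library C 17.3%. Library C was the highest of the salt libraries for 48 of the 56 genes and library A the lowest for 44, and both held with B between them for 37. Among the 1049 other genes above the floors, library C was highest for 63.5%. The ratio of library C to library A had a median of 3.53 in the set and 1.41 in those other genes. The median SD of log2(FPKM + 1) was 1.06 between salt libraries, against 0.13 between controls, and 0.50 and 0.13 in the other genes above the floors. Because the rule takes the highest salt value, library C set most entries to the set: without it 156 genes would qualify, all 56 among them. Without library C the median ratio of salt to control means in the set was 0.0556, against 0.0962 with all 3 libraries. Why library C stood nearer to the controls was not tested.

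**Figure D3:**
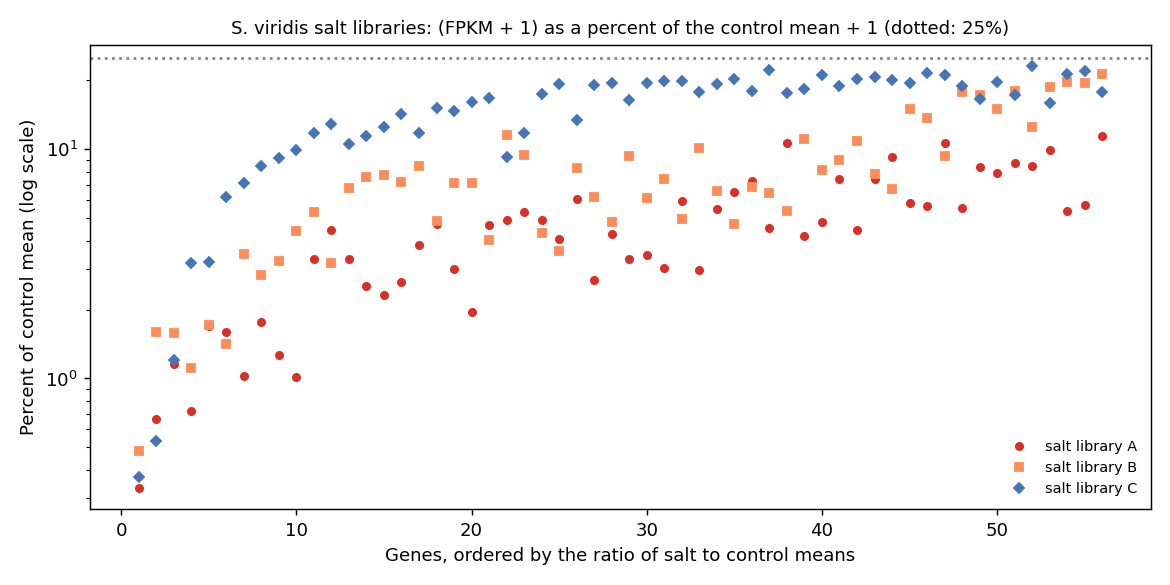
Level left under salt in S. viridis for each of the 56 genes, as (FPKM + 1) in percent of the control mean + 1 on a log scale, with genes ordered by their ratio of means and 1 symbol per salt library. Library C lies highest for 48 genes and library A lowest for 44, and all points lie under 25%.

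In S. alterniflora the rule kept the ratio of means of the same genes within 2-fold. Within that window the genes were not spread evenly around no change. The salt to control ratio was below 1 for 52 of the 56 genes, with a median of 0.679, a range of 0.508 to 1.31 and quartiles of 0.601 and 0.825. Among the 1049 other genes above the floors, 39.7% had a ratio below 1 and the median was 1.11. Close to no change, at 0.8 to 1.25, were 14 of the 56 genes (25.0%) and 504 of the 1049 others (48.0%). Kept in cordgrass therefore means group means within 2-fold, and most of the set had lower means under salt in cordgrass as well. Single libraries could lie further off: each salt library was within 2-fold of the control mean for 35 of the 56 genes. The window itself removed few genes: of 62 that met all other conditions, 56 lay inside it (90.3%), as did 91.6% of the 1049 others. The median of the 62 genes before the window was applied was 0.669.

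Each S. alterniflora salt library was below the shared control mean for most of the set. Library A was below it for 50 of the 56 genes, library B for 49 and library C for 51, with median ratios of 0.752, 0.557 and 0.663. By the same measure, control libraries A, B and C were below their own mean for 28, 42 and 15 genes. Their medians were 0.998, 0.856 and 1.14. The 3 salt counts rest on the same control mean, so they are not separate results. In 20 of the 56 genes all 3 salt libraries lay below all 3 controls. The same separation was seen in 7.91% of the 1049 other genes above the floors and in 7.01% of all 11330 genes tested in the species. The reverse, every salt library above every control, was seen in 0 of the 56, against 14.7% of all genes tested. The count of 20 was 36 without control library B and 33 without salt library A, where fewer libraries have to be apart. The shares of 7.91% and 7.01% hold for all 3 libraries per group and give no background for the counts of 36 and 33. Control library B was the lowest control for 34 of the 56 genes and library C the highest for 31. Under upper quartile scaling, 54 of the 56 genes had a ratio below 1, with a median of 0.612 against 1.02 in the other genes above the floors.

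No gene of the set passed the test across all genes in S. alterniflora. Limma called 0 of the 56 lower, where 0.194% of 11330 tested genes were called lower, and 0 higher, where 1.43% were. At an unadjusted p under 0.05 there were 12 of the 56 genes, where 14.7% of all 11330 genes tested were. The rule's window of 2-fold bears on this count, and a missed threshold does not show that a gene was unchanged. Calls over all genes in this species numbered 184, and they rested on single libraries: 116 were made without salt library A and 35 without salt library C. Without control libraries A, B and C, limma made 0, 67 and 49 calls, with 1099 genes at an unadjusted p under 0.05 without library A.

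**Figure D4:**
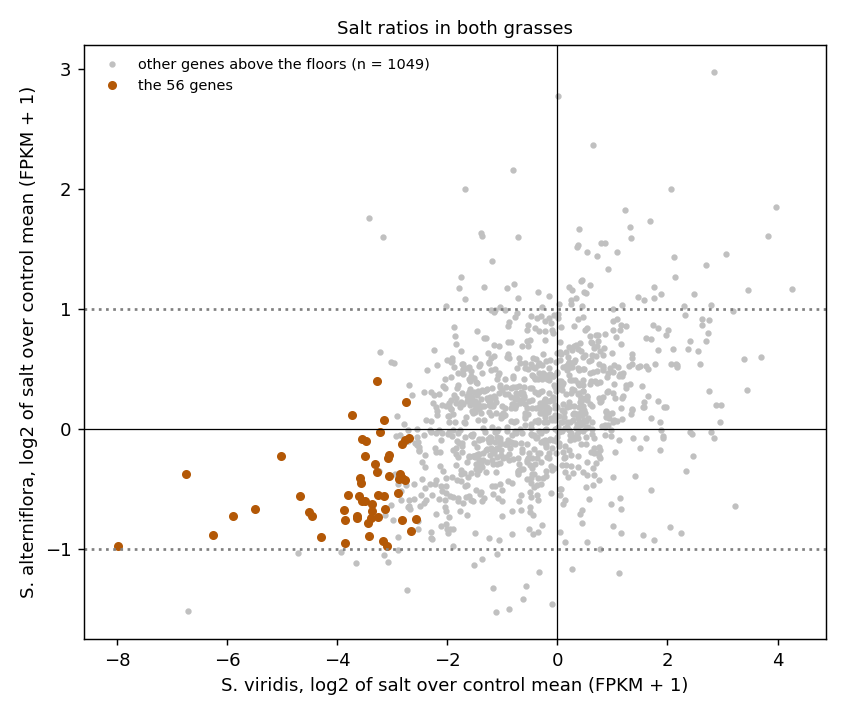
Log2 of the salt to control ratio of mean FPKM + 1 in S. viridis (horizontal) and S. alterniflora (vertical) for the 1105 genes above the floors, with the 56 genes in brown and dotted lines at the 2-fold limits of the rule. The rule places the 56 genes at the left and between the dotted lines, and 52 of them lie below the horizontal line of no change.

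Across the 1105 genes above the floors, the S. alterniflora ratio followed the depth of the fall in S. viridis. Genes with a highest S. viridis salt value at most 0.25 of the lowest control had a median S. alterniflora ratio of 0.669 (62 genes). Those above 0.25 and up to 0.5 had 0.922 (156 genes), those above 0.5 and up to 1 had 1.07 (330 genes), and those above 1 had 1.18 (557 genes). The ratios of the 2 species share no libraries. Levels matter to this comparison, since abundant genes of S. alterniflora in general had lower ratios. At 1000 FPKM and above in its controls the median was 0.678 in 17 genes of the set and 0.722 in 44 others, 34 of which were below 1. At 100 to 1000 FPKM it was 0.681 in 22 genes of the set and 1.05 in 351 others, and under 100 FPKM it was 0.753 in 17 and 1.14 in 654. The set and the other genes were thus close in the most abundant class and apart in both lower ones. These medians are descriptions of genes in the same libraries and carry no test.

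The 2 genes with the highest S. alterniflora ratios were Sevir.3G082700 and Sevir.1G064400. Sevir.3G082700 measured 79.7, 80.9 and 98.5 FPKM in S. alterniflora controls and 112.9, 70.5 and 158.1 FPKM under salt, a ratio of 1.31. Its salt libraries lay on both sides of the controls, with library B below all of them. In S. viridis it went from 98.0, 88.2 and 103.8 FPKM to 4.80, 3.85 and 18.4 FPKM. Sevir.1G064400 measured 204.7, 171.5 and 134.0 FPKM in S. alterniflora controls and 223.0, 221.5 and 150.9 FPKM under salt, a ratio of 1.17 with overlapping groups. Of its S. viridis values, controls were 93.9, 88.0 and 101.2 FPKM and salt libraries 8.45, 16.9 and 14.2 FPKM. Neither gene was called in S. alterniflora. For Sevir.1G064400 the difference of the means was smaller than the SD of each group. For Sevir.3G082700 it was smaller than the SD of the salt libraries (43.8 FPKM) but larger than that of the controls (10.5 FPKM).

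The lowest S. alterniflora ratios belonged to Sevir.2G294100 and Sevir.5G032500, both at 0.508 and so just inside the rule's limit. Sevir.2G294100, the gene that fell most in S. viridis, measured 237.3, 126.8 and 80.6 FPKM in S. alterniflora controls and 137.0, 54.2 and 33.1 FPKM under salt. Salt library A lay above control libraries B and C, so the groups overlapped. Sevir.5G032500 measured 177.1, 113.5 and 313.2 FPKM in S. alterniflora controls and 134.6, 66.95 and 103.9 FPKM under salt, and its groups overlapped as well. In S. viridis it had 51.6, 54.3 and 57.3 FPKM in controls and 3.13, 3.96 and 9.43 FPKM under salt. Without salt, Sevir.9G175700 was the most abundant gene of the set in S. alterniflora, chosen here after its values were seen. It measured 46132, 25418 and 44494 FPKM in controls and 26816, 21511 and 24365 FPKM under salt in that species, with salt library A above control library B. Its S. viridis values fell from 6496, 6884 and 8852 FPKM to 244.2, 393.0 and 876.6 FPKM.

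The salt effect differed between the species for the whole set, as the rule requires. In the interaction fit over all 12 libraries, limma called all 56 genes lower in S. viridis, against 13.4% of 12529 tested genes. The difference of salt effects (S. viridis minus S. alterniflora, log2) ran from -6.90 to -1.86 with a median of -3.18. Interaction calls over all genes numbered 3029, and 1966 without S. viridis control library B. Leaving out any 1 library kept 54 to 56 of the set called. Over all genes, 1044 of 12562 were called lower without S. viridis control library B and 2428 of 12542 without its salt library C. The set was chosen on these same libraries, so its calls are no test of stability.

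The control levels of the genes were correlated between the grasses, but most differed by more than 2-fold. Pearson's r of log2 control means was 0.83 and Spearman's rho 0.76 across the 56 genes, and r was 0.67 across the 1049 others above the floors. Genes are not independent and share their libraries and the floor, so these values describe the set only. Pearson's r also depends on the spread of levels. At 1000 FPKM and above in S. viridis controls were 39.3% of the set and 4.48% of the others. The r of 0.83 beside 0.67 therefore does not show closer likeness between the species in the set. Higher in S. viridis controls were 28 genes and lower were 28, the median ratio was 1.04, and 21 genes lay within 2-fold. By limma on the control libraries, 20 of the 56 were higher in S. viridis, where 39.5% of 12134 tested genes were, and 23 were lower, where 32.8% were. The remaining 13 did not pass. In a shared fit over all 12 libraries 16 were higher, where 34.9% of 12529 tested genes were, and 15 were lower, where 28.3% were. After median centring of every library, the counts were 16 higher and 25 lower in the set and 3989 higher and 5065 lower over all genes, against 4792 and 3976 as deposited. Values of both species stand in 1 table, but S. viridis values are always written with 2 decimals and S. alterniflora values only in 79.8% to 81.2% of entries per library. The columns may have been made separately, so levels set across species depend on processing steps that remain unstated.

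Some genes differed in control level between the species by 5-fold or more, beyond the shift of either scaling. Sevir.7G290600 was 20.9 times higher in S. viridis, with 2110, 1986 and 2327 FPKM in its controls and 101.6, 121.4 and 80.9 FPKM in those of S. alterniflora (log2 difference 4.40 ± 0.20 SE, limma adjusted p = 3.07e-06). Sevir.1G036000 was 12.6 times higher, with 1116, 1032 and 1277 FPKM against 74.96, 72.3 and 120.9 FPKM (3.70 ± 0.24, limma adjusted p = 1.33e-05). These 2 genes had higher salt means in S. viridis than in S. alterniflora although their S. viridis means were 11.9-fold and 7.09-fold lower than in controls. Sevir.7G290600 had 40.9, 151.4 and 345.1 FPKM in S. viridis salt libraries and 76.7, 70.5 and 74.9 FPKM in those of S. alterniflora. Sevir.1G036000 had 94.6, 197.2 and 188.8 FPKM against 67.7, 61.4 and 72.1 FPKM. In the opposite direction, Sevir.1G289200 was 11.2 times higher in S. alterniflora controls, at 7123, 7034 and 7607 FPKM against 583.9, 659.9 and 699.4 FPKM (log2 difference -3.49 ± 0.18, limma adjusted p = 4.44e-06). Under salt it measured 4748, 3009 and 3979 FPKM in S. alterniflora, below every control, and 16.5, 39.3 and 123.1 FPKM in S. viridis. Sevir.9G312000 was 5.65 times higher in S. alterniflora, at 137.6, 162.4 and 192.5 FPKM against 28.1, 30.5 and 26.2 FPKM (-2.49 ± 0.18, limma adjusted p = 2.12e-05). Under salt it measured 174.6, 89.5 and 158.5 FPKM there and 1.18, 1.28 and 5.05 FPKM in S. viridis.

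Under salt the order of the species was nearly uniform. The S. alterniflora mean exceeded the S. viridis mean for 54 of the 56 genes, the exceptions being Sevir.7G290600 and Sevir.1G036000, and the median ratio was 8.90. In 50 genes every S. alterniflora salt library lay above every S. viridis salt library. The rule's floor and ratio favour this order, so it is a description of the chosen genes. No share of other genes is given beside these counts, so they do not show that the set is unusual.

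**Figure D5:**
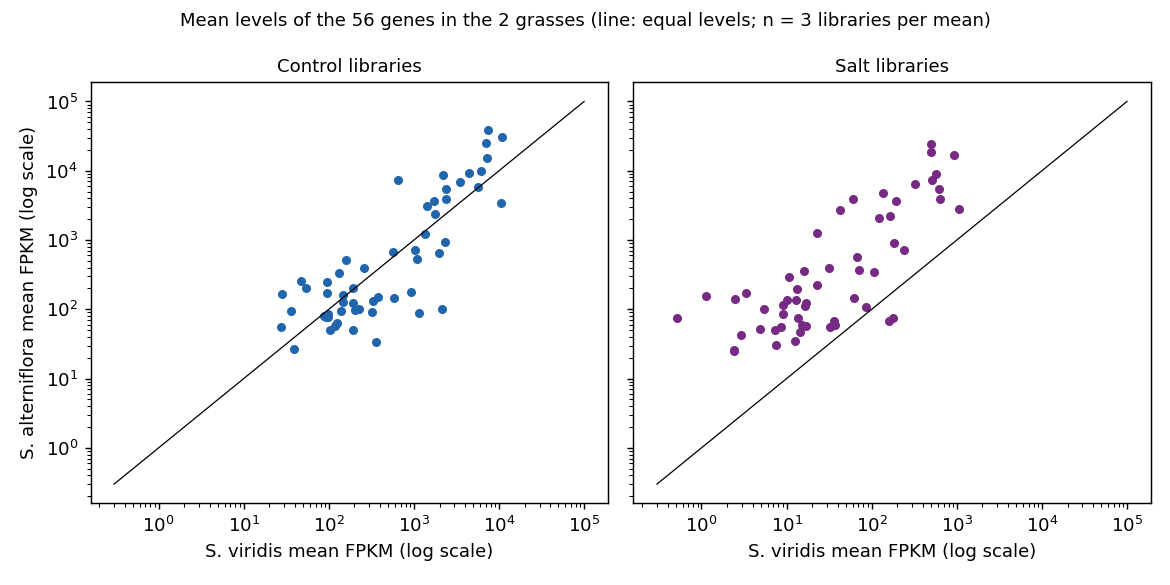
Mean FPKM of the 56 genes in S. viridis (horizontal) and S. alterniflora (vertical), log scales, with control libraries at the left and salt libraries at the right and a line of equal levels (each mean over 3 libraries). The control points lie on both sides of the line, 28 genes to each, and 54 of the salt points lie above it.

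Just inside the limit for S. viridis were genes with ratios of 0.247 and 0.245, and just outside were genes with 0.257 and 0.259 that met every other condition. Below the S. alterniflora window 5 genes were left out, with ratios of 0.492, 0.487, 0.483, 0.461 and 0.350, next to the lowest members at 0.508. Above it 1 gene was left out with a ratio of 3.38, far from the highest member at 1.31. The lowest S. alterniflora values inside the floor were 21.95 and 23.4 FPKM, and 19.9 and 18.1 FPKM outside it. In all, 137 genes met the S. viridis conditions, and 75 of these missed the S. alterniflora floor. Their S. viridis salt libraries A, B and C kept medians of 4.30%, 7.17% and 13.5% of the control mean, and their median control level was 72.95 FPKM.

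The IDs showed little clustering. By the digit that precedes the letter G, each of the 9 numbered sets held 2 to 9 of the genes, from 2.5% of those above the floors for digit 6 to 9.57% for digit 7. A single pair stood close together in the table, Sevir.3G243800 and Sevir.3G244000, with 1 row between them, and it was picked out after the fact. In S. viridis the first went from 177.8, 217.5 and 209.5 FPKM to 6.77, 16.1 and 22.9 FPKM, and the second from 103.7, 104.1 and 105.1 FPKM to 7.87, 12.2 and 23.4 FPKM. In both genes library A was the lowest and library C the highest under salt. In S. alterniflora their ratios were 0.605 and 0.940. Whether the pair are copies that share reads cannot be told from IDs alone.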

How the data were processed

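The authors deposited 1 table of FPKM values for 15218 gene IDs and 12 libraries of mature leaf RNA, per the file headers. The submitters' processing notes list RSEM and edgeR but give neither a version nor a role. Aligner, reference and build: not given in the sources used here. The same holds for how S. alterniflora reads came to carry Setaria IDs. Genes that share reads with near-identical copies are therefore uncertain. Columns carry species, control or a dose, and a letter, so they were assigned to groups by species and treatment and not to single samples. No pairing of libraries by letter was seen: correlations of deviations between same-letter control and salt libraries were -0.02 to 0.05. Such values cannot show that libraries of 1 letter had no plant or batch in common.

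The genes were selected by the stated rule with Python 3.11.15 and pandas 2.3.3. FPKM is not a count, so log2(FPKM + 1) was fitted with limma 3.58.1 in R 4.3.3 (eBayes with trend, two-sided, Benjamini-Hochberg adjustment over all tested genes, threshold 0.05) for genes whose mean over the fitted libraries reached 1 FPKM. The salt fits used the 6 libraries of 1 species, the interaction all 12, the species comparison the 6 controls. The fits were tested on made-up data with known changes. P-values set the difference between groups against the spread between libraries, which may be technical. Fold changes on this scale understate changes of low genes.

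The genes, lists and named-gene rule were chosen with earlier results of these data known. With no names paired, that rule gave at most 2 IDs per direction and comparison: the extremes of the S. viridis ratio, of the S. alterniflora ratio and of the ratio of controls. The 14 gene lists drawn up by description could not be used. Alternatives were another pseudocount (0.1), filters, scalings, trend, a pooled fit, the letter as block, other thresholds of the rule and each library left out.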

Additional observations from a re-analysis of the deposited data

Results flagged for a closer look

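All 56 of the genes passed the interaction test, where 13.4% of 12529 tested genes were called lower in S. viridis. The choice of the genes fixes this difference of salt effects, and species and dose differ together. For Sevir.2G294100 the difference of effects (foxtail minus cordgrass, log2) was -6.90, and for Sevir.5G222600 it was -5.50. No group had 4 or more libraries, so single libraries were not examined for outlying values.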

How the results depend on the processing

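Of 473 values recomputed under alternatives, 19 moved and the others stayed within their limits of change, 1 of them with a turned sign. The limit was 1.5 times for counts and the SD between libraries for medians and shares. Many of these values are fixed by the choice of the genes, such as the 56 called lower in S. viridis. The 19 are therefore no measure of robustness. The number of genes meeting the rule was 205 when S. viridis salt values had to be at most 0.5 of control, 13 at 0.125, 30 with an S. alterniflora window of 0.67 to 1.5, 35 when each S. alterniflora salt library had to lie within 2-fold, and 48 to 156 with 1 library left out. Upper quartile scaling gave 62 genes and median scaling 60, with 48 of the 56 genes among each. A shared fit over all 12 libraries called 15 instead of 23 of the set lower and 16 instead of 20 higher in S. viridis controls, with 3546 lower and 4377 higher of 12529 genes tested, and made 526 calls over all genes for S. alterniflora salt. The median log2 difference between controls, 0.09 as deposited, was -0.26 with upper quartile scaling and -0.30 with median centring, where centring moved the median of all genes from 0.16 to -0.23. The same median turned to -0.11 without S. alterniflora control library B. With the column letter as a replicate block, 105 genes were called for S. alterniflora salt, 0 of the 56 among them, and no other count moved by over 1.5 times. With 1 library left out, calls over all genes were 3907 to 7033 for S. viridis salt, 0 to 154 for S. alterniflora salt and 1966 to 3917 for the interaction. Genes of the set without overlap in S. alterniflora were then 22 to 36, with no matching share of other genes given. Those with a ratio below 1 were 49 to 53. These S. alterniflora counts were added after seeing the data. The cause of these changes was not tested, apart from fewer libraries or other limits by construction. Depth is unknown and limits low values by an unknown amount.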
